A study of Drosophila melanogaster with 6 samples.

Results

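Septate junctions seal the space between neighbouring cells of insect epithelia, as tight junctions do in vertebrates. The ectodermal epithelia of Drosophila build the pleated type, which contains Neurexin IV, Coracle, claudin-like proteins and a large set of partners. The midgut, which is of endodermal origin, builds the smooth type, for which the membrane proteins Snakeskin (*Ssk*), *mesh* and Tetraspanin 2A (*Tsp2A*) are required. In the adult fly midgut these proteins hold the barrier between enterocytes, the absorptive cells, and their depletion is known to raise stem cell proliferation. The genes described here are those for the smooth junction proteins *Ssk*, *mesh* and *Tsp2A*, the basolateral scaffold proteins *dlg1*, *scrib* and *lgl*, the membrane-linked proteins *cora* and *vari*, and the adhesion proteins *Fas3* and *Nrg*. They were taken by gene symbol or synonym with every probe set that carries the name. All 10 genes were found, with 21 of the 18769 probe sets tested.

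Transcripts were quantified with Affymetrix Drosophila 2.0 chips, where each probe set pools several short probes against the transcripts of a gene. Whole midguts came from 7-day-old females of *Apc1*-/- (allele Apc1Q8, described as a null) and of wild type, aged at 25°C, with 3 samples per genotype, several midguts pooled in each, and 1 array per sample. The mutation was carried by the whole animal, so every cell type of the mutant gut lacked *Apc1*. The wild-type strain is given as w1118 in the description of the data and as Canton S in the study's methods, so differences of strain background between the genotypes cannot be told apart from the mutation. The deposited values are on a log2 scale, on which a difference of 1 is a change of 2-fold, and differences are given as *Apc1*-/- minus wild type. The genotypes were compared with limma, and a probe set was called when its p, adjusted by Benjamini-Hochberg over all 18769 probe sets, was under 0.05. No level of a gene was set against that of another, since probe sets differ in how strongly they bind.

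The correlation between arrays over all probe sets was 0.983 to 0.992 within a genotype and 0.954 to 0.964 across genotypes. The transcript of *Apc* itself had values of 6.41, 6.13 and 6.94 in *Apc1*-/- midguts and 6.55, 5.89 and 6.63 in wild type, so its level did not separate the labelled genotypes. In bulk tissue, fewer cells of a type and less RNA per cell cannot be told apart. Over all probe sets, 6.82% were called higher and 4.22% lower, and of those with a mean over 5, 13.5% were called higher. Of the marker lists, each gene counted by its brightest probe set, progenitor genes had 4 of 7 called higher (array means 4.20 to 4.30 in *Apc1*-/- and 3.47 to 3.58 in wild type), and enteroendocrine genes 7 of 11 higher and 1 lower (6.67 to 7.05 in *Apc1*-/- and 6.0 to 6.34 in wild type). Enterocyte genes, which mark the labelled tissue, were present, with 1 called higher and 1 lower of 6 (8.73 to 9.32 in *Apc1*-/- and 8.67 to 9.26 in wild type). Their median difference was 0.5, with 4 of the 6 higher and 1 lower without overlap between the genotypes. Of all probe sets, 17.2% were higher and 14.2% lower without overlap, and of those with a mean over 5, 32.6% were higher. Visceral muscle genes had 2 of 11 called, both lower, while 7 of 11 were above 0 with a median of 0.16. The called genes were *Mlc2* (−0.96) and *Mef2*, whose brightest probe set was at −5.43 and its other 3 between −0.46 and 0.25. The muscle array means were 8.73 to 8.88 in *Apc1*-/- and 9.17 to 9.43 in wild type, but 9.10 to 9.28 in *Apc1*-/- and 9.05 to 9.35 in wild type without *Mef2*, a choice made after seeing the data. The part of these shifts in the results below was not tested. Ovary genes averaged 1.88 to 2.09 on the *Apc1*-/- arrays and 2.02 to 4.79 on the wild-type arrays, the highest on wild type replicate 2, so the differences without that array are given beside the called junction and adhesion genes.

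All 3 smooth septate junction genes were higher in *Apc1*-/- midguts, and they were the only members whose probe sets were called. The study stained midguts for Discs large and reported that it spread into the cytoplasm of *Apc1* mutant enterocytes. It also reported less Armadillo, the fly β-catenin, at their membranes. The question put to the arrays here is whether the transcripts of septate junction genes differed in amount. The arrays do not measure the amount or place of the proteins, or whether the junctions were intact. Of the 21 member probe sets, 3 were called (14.3%), all 3 higher in *Apc1*-/- midguts, where 6.82% of all probe sets were called higher and 11.0% were called in either direction. Because the members were bright on the whole, a closer background is the 5302 probe sets with a mean over 5, of which 13.5% were called higher and 22.2% in either direction. Of the 12 member probe sets with such a mean, 3 were called. None of the 21 was called lower by limma, which 4.22% of all probe sets were. At an unadjusted p under 0.05, 9 were higher and 1 lower, where 25.0% of all probe sets passed in either direction. Calls aside, 17 of the 21 differences were above 0, against 47.6% of all probe sets, and so were 11 of the 12 with a mean over 5, against 62.3% of probe sets of that brightness. The median difference was 0.29 over the member probe sets, −0.02 over all probe sets and 0.12 over those with a mean over 5.

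*Ssk* encodes a small membrane protein that is needed to form smooth septate junctions. Its single probe set had values of 11.79, 11.69 and 11.85 in *Apc1*-/- midguts and 10.86, 10.64 and 10.76 in wild type. The lowest mutant array lay well above the highest wild-type array. The mean was 11.78 ± 0.08 (SD, n = 3) in *Apc1*-/- and 10.75 ± 0.11 (SD, n = 3) in wild type, a difference of 1.03 (SE 0.11, limma adjusted p = 0.00163). This corresponds to 2.04-fold, and *Ssk* was the only member probe set called at more than 2-fold, which 5.02% of all probe sets were. The 95% interval of the log2 difference, 0.76 to 1.29, covers changes on both sides of 2-fold. *Ssk* was called with each array left out in turn, with differences of 0.97 to 1.08, the lowest without wild type replicate 2.

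*Tsp2A* encodes a tetraspanin, a protein with several passes through the membrane, which acts with *Ssk* and *mesh* in the same junction. It had values of 8.74, 8.53 and 8.90 in *Apc1*-/- midguts and 8.06, 7.61 and 7.96 in wild type, and the groups did not overlap. The difference was 0.85, or 1.80-fold (SE 0.16, limma adjusted p = 0.0162). The direction was the same with each array left out, with differences of 0.72 (without wild type replicate 2, limma adjusted p = 0.0333) to 0.95. The call was lost without *Apc1*-/- replicate 1 (limma adjusted p = 0.0625) and without *Apc1*-/- replicate 3 (limma adjusted p = 0.0691). Fewer probe sets were called in all in these fits, 1200 and 1085 in that order, in place of 2072 with all arrays.

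*mesh* encodes a transmembrane protein with an immunoglobulin-like domain that is found in smooth septate junctions. Its bright probe set had values of 10.89, 10.70 and 10.98 in *Apc1*-/- midguts and 10.26, 10.05 and 10.40 in wild type, without overlap. The difference was 0.62, or 1.54-fold (SE 0.14, limma adjusted p = 0.0294). This call was the least firm of the 3, since it was lost without *Apc1*-/- replicate 1 (adjusted p = 0.0996), *Apc1*-/- replicate 3 (0.109), wild type replicate 1 (0.0696) or wild type replicate 2 (0.0682), with differences of 0.53 (without wild type replicate 2) to 0.70. A second probe set of *mesh* was dim, with values of 2.52, 1.64 and 1.84 in *Apc1*-/- midguts and 1.82, 2.32 and 1.96 in wild type. Its groups overlapped, with a difference of −0.03 (95% interval −0.60 to 0.54), and averaging both probe sets brought the difference of *mesh* to 0.29 (limma adjusted p = 0.269). *mesh* lies on chromosome arm 3R, as does *Apc*, from which it is 301 protein-coding genes away in the RefSeq annotation. *Ssk* lies on 3L, the other arm of the same chromosome, and *Tsp2A* on X. For *mesh* and *Ssk*, a difference carried along with the mutant chromosome cannot be told apart from the mutation. For *Tsp2A* and members on other chromosomes, a difference of strain background cannot be told apart either.

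**Figure D1:**
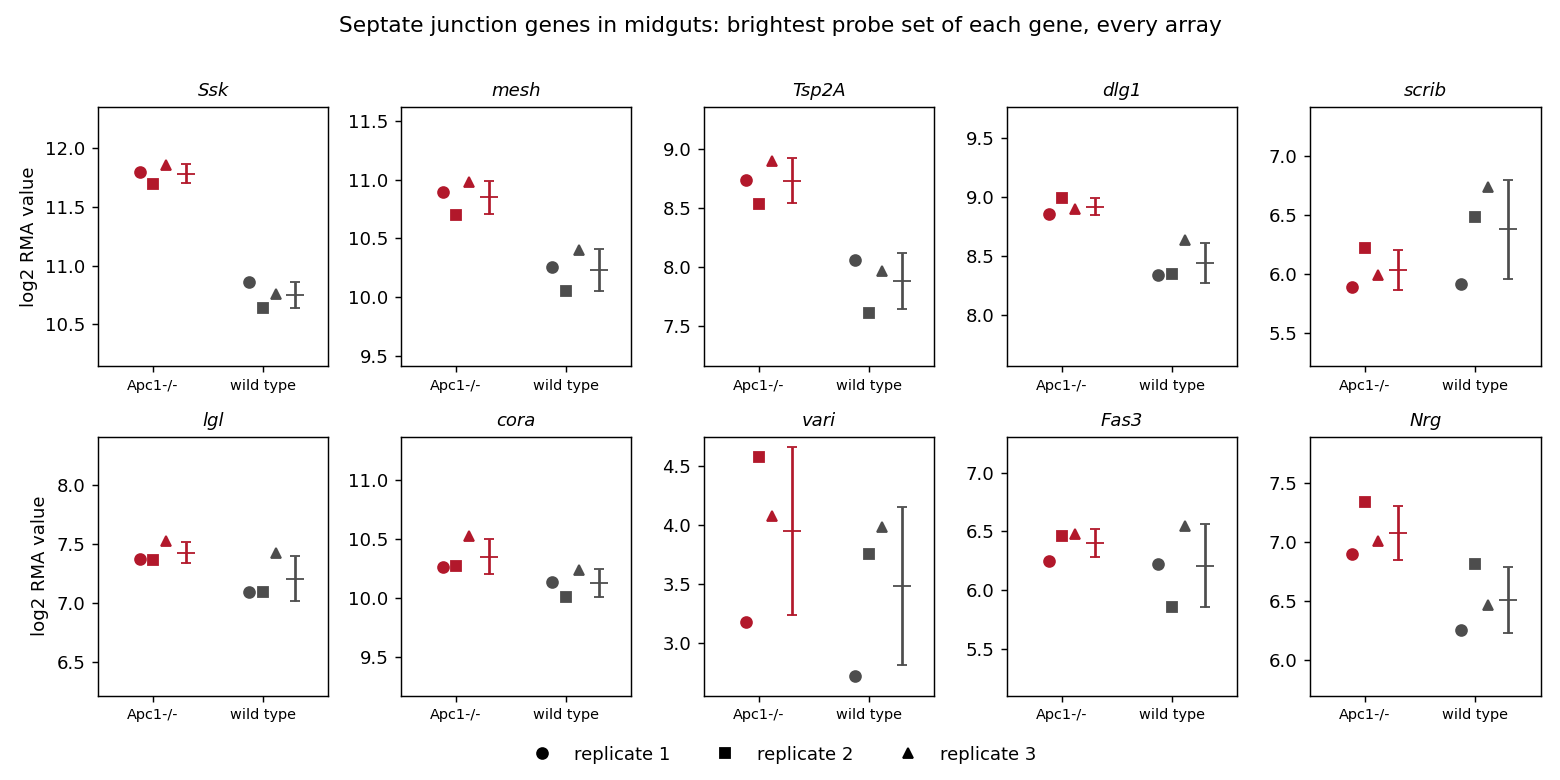
Log2 RMA values (vertical axes, each spanning the same range of log2 units) of the brightest probe set of each of the 10 septate junction genes on every array, with *Apc1*-/- in red at the left and wild type in grey at the right of each panel. Marker shapes give the replicate number and the bars the mean ± SD (n = 3). The genotypes do not overlap in *Ssk*, *mesh*, *Tsp2A*, *dlg1*, *Nrg* and, by a narrow margin, *cora*. The spread of *vari*, from 2.72 to 4.58, is far wider than that of *cora* or *lgl*.

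The fourth gene known to be needed for smooth septate junctions, *hoka*, was on a list of 23 further septate junction genes and was called higher too. It had values of 10.88, 10.71 and 10.85 in *Apc1*-/- midguts and 10.32, 10.09 and 10.33 in wild type, without overlap. The difference was 0.57, or 1.48-fold (SE 0.12, limma adjusted p = 0.025). Without wild type replicate 2 it was 0.49. Like *Ssk*, *hoka* lies on arm 3L, so a difference carried along with the mutant chromosome cannot be told apart. The call of *hoka* was lost without *Apc1*-/- replicate 1, 2 or 3 or wild type replicate 2, with adjusted p up to 0.0953. Among these 4 genes, *Ssk* was called in all 6 fits with 1 array left out, *Tsp2A* in 4, and *mesh* and *hoka* in 2 each, while every one of these differences stayed above 0. In all 4 genes, *Apc1*-/- replicate 2 was the lowest mutant array and wild type replicate 2 the lowest wild-type array. The share of all probe sets with this pattern was not counted, so it is not read as a trait of these genes.

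**Figure D2:**
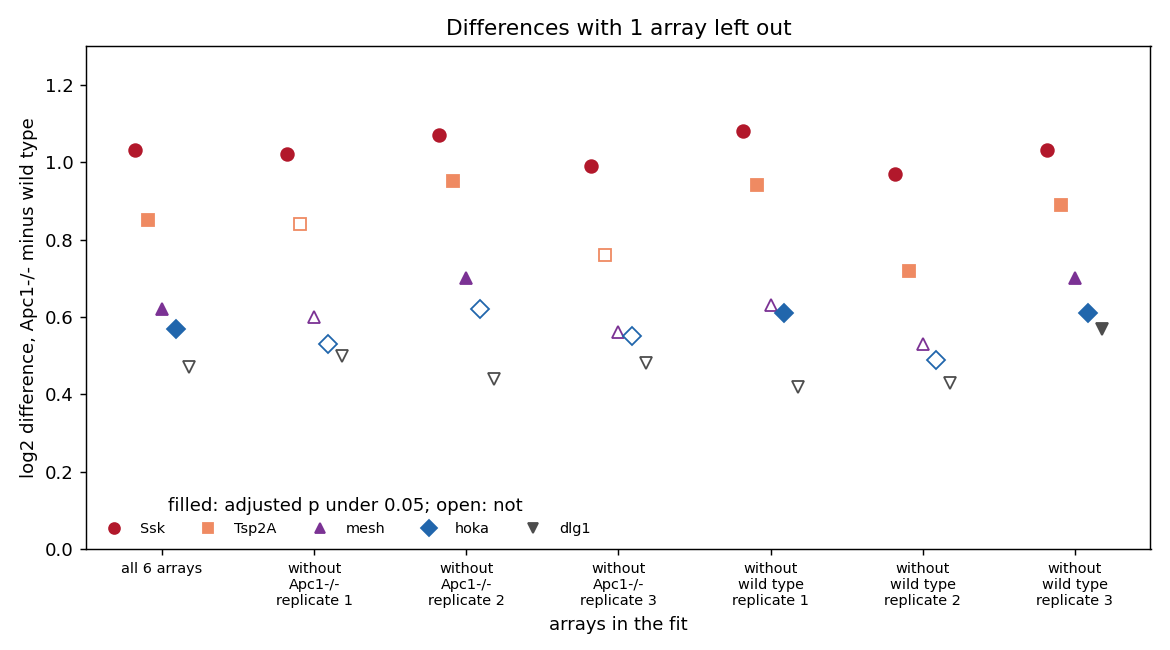
Log2 difference, *Apc1*-/- minus wild type (vertical axis), of the 4 smooth septate junction genes and *dlg1*, with all arrays and with each array left out in turn (horizontal axis). Filled markers have a limma adjusted p under 0.05 and open markers do not. All markers lie above 0, and those of *Ssk* are filled throughout.

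The basolateral scaffold genes *dlg1*, *scrib* and *lgl* encode proteins that act together to set up the lateral membrane in many, but not all, epithelia. Discs large also marks septate junctions in the midgut. None of their 9 probe sets was called, and their differences were between −0.42 and 0.47. The brightest probe set of *dlg1* came close to the threshold. It had values of 8.86, 8.99 and 8.90 in *Apc1*-/- midguts and 8.34, 8.35 and 8.64 in wild type, without overlap. The difference was 0.47, or 1.39-fold (SE 0.13, limma adjusted p = 0.0535). The call turned on the processing, since *dlg1* passed when 1 probe set was kept per gene (adjusted p = 0.0488), when probe sets with a mean under 5 were left out (0.0249), or without wild type replicate 3 (0.0343). It moved the other way with the mean of all *dlg1* probe sets, which brought the difference to 0.16 (limma adjusted p = 0.379), and with the replicate number as a block (limma adjusted p = 0.0894).

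A second *dlg1* probe set pointed the same way. It had values of 5.31, 5.34 and 5.42 in *Apc1*-/- midguts and 4.89, 5.0 and 5.19 in wild type, again without overlap (difference 0.33, limma adjusted p = 0.143). The other 2 probe sets of *dlg1* were dim, with values of 2.00 to 3.08 in *Apc1*-/- midguts and 2.01 to 3.20 in wild type, and their groups overlapped. The table names the same transcripts for every probe set of a gene, so which isoform each one reports is not given.

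The probe sets of *scrib* went in opposite directions, and none was called. The brightest had values of 5.89, 6.22 and 5.99 in *Apc1*-/- midguts and 5.91, 6.48 and 6.74 in wild type (difference −0.34, limma adjusted p = 0.379). Another of similar brightness had values of 6.26, 6.20 and 6.26 in *Apc1*-/- midguts and 6.16, 5.52 and 6.02 in wild type (difference 0.34, limma adjusted p = 0.277). The first pair of groups overlapped and the second did not. Of the remaining probe sets, the one with means of 4.95 in *Apc1*-/- and 4.66 in wild type had a difference of 0.29, and the one with means of 2.66 in *Apc1*-/- and 3.08 in wild type had a difference of −0.42, both without overlap (limma adjusted p = 0.194 and 0.177). *scrib* too lies on arm 3R, 221 protein-coding genes from *Apc*. Given these signs, the arrays assign no direction to *scrib* as a gene.

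*lgl*, listed under its older name l(2)gl, had 1 probe set with values of 7.38, 7.37 and 7.53 in *Apc1*-/- midguts and 7.10, 7.10 and 7.43 in wild type. Wild type replicate 3 reached into the range of the mutant arrays. The difference was 0.21 (95% interval −0.10 to 0.52, limma adjusted p = 0.371).

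*cora* encodes Coracle, a FERM-domain protein on the inner face of the membrane that is a core part of pleated junctions and is also found at the midgut junctions. Its probe set was bright, with values of 10.26, 10.27 and 10.53 in *Apc1*-/- midguts and 10.14, 10.01 and 10.24 in wild type. Every mutant array lay above every wild-type array, but by a narrow margin. The difference was 0.22 (95% interval −0.07 to 0.52, limma adjusted p = 0.329). Whether the smooth junction genes differed more than *cora* and the other members was not tested.

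*vari* encodes Varicose, a scaffold protein of the membrane-associated guanylate kinase family that works with Neurexin IV in pleated junctions. Its single probe set had values of 3.18, 4.58 and 4.08 in *Apc1*-/- midguts and 2.72, 3.75 and 3.98 in wild type. It had the widest interval of the members, −0.53 to 1.45 around a difference of 0.46 (limma adjusted p = 0.559), and the difference moved between 0.08 (without wild type replicate 1) and 0.85 (without *Apc1*-/- replicate 1). Replicate 1 was the lowest array of *vari* in both genotypes. The same held for the brightest probe sets of 12 of the 33 septate junction genes on both lists (36.4%), among them *Lac* and *bou*. It held for 11.0% of all probe sets and for 13.2% of those with a mean over 5. *Lac* had values of 6.42, 8.01 and 7.05 in *Apc1*-/- midguts and 6.65, 7.48 and 7.55 in wild type, so its spread within a genotype was wide beside its difference of −0.07. *Irk3*, a potassium channel gene of the Malpighian tubules, had its lowest values, 4.22 in *Apc1*-/- and 5.12 in wild type, on these same arrays. *Uro*, the other tubule gene with a mean over 5, did not, since its lowest values were 5.72 on *Apc1*-/- replicate 2 and 5.94 on wild type replicate 3. The part of tubule RNA in the spread was not tested.

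The adhesion genes *Fas3* and *Nrg* encode membrane proteins with immunoglobulin domains, Fasciclin III and Neuroglian, that join cells to each other and are found at septate junctions. All 6 of their probe sets had differences above 0, between 0.18 and 0.78, and none was called. For *Nrg*, the brightest probe set had values of 6.90, 7.34 and 7.01 in *Apc1*-/- midguts and 6.25, 6.81 and 6.47 in wild type, without overlap (difference 0.58, or 1.49-fold, limma adjusted p = 0.0936). Leaving out wild type replicate 2 brought *Nrg* past the threshold (difference 0.72, limma adjusted p = 0.0494). A second probe set of *Nrg* had values of 5.91, 6.33 and 6.23 in *Apc1*-/- midguts and 5.20, 5.78 and 5.83 in wild type, with a difference of nearly the same size, 0.56 (limma adjusted p = 0.136). Its dim probe set had means of 1.90 in *Apc1*-/- and 1.69 in wild type and overlapped.

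The probe sets of *Fas3* differed among themselves in size. The brightest had values of 6.25, 6.46 and 6.48 in *Apc1*-/- midguts and 6.22, 5.86 and 6.55 in wild type, and the groups overlapped (difference 0.18, limma adjusted p = 0.592). A dimmer one had values of 4.46, 5.05 and 4.72 in *Apc1*-/- midguts and 3.25, 4.19 and 4.46 in wild type. That difference, 0.78, came after those of *Ssk* and *Tsp2A* in size among the member probe sets, but its wild-type arrays were spread (SD 0.64) and it was not called (limma adjusted p = 0.172). It was 0.42 without wild type replicate 1. The remaining probe set of *Fas3* had means of 4.34 in *Apc1*-/- and 4.06 in wild type, with overlap.

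**Figure D3:**
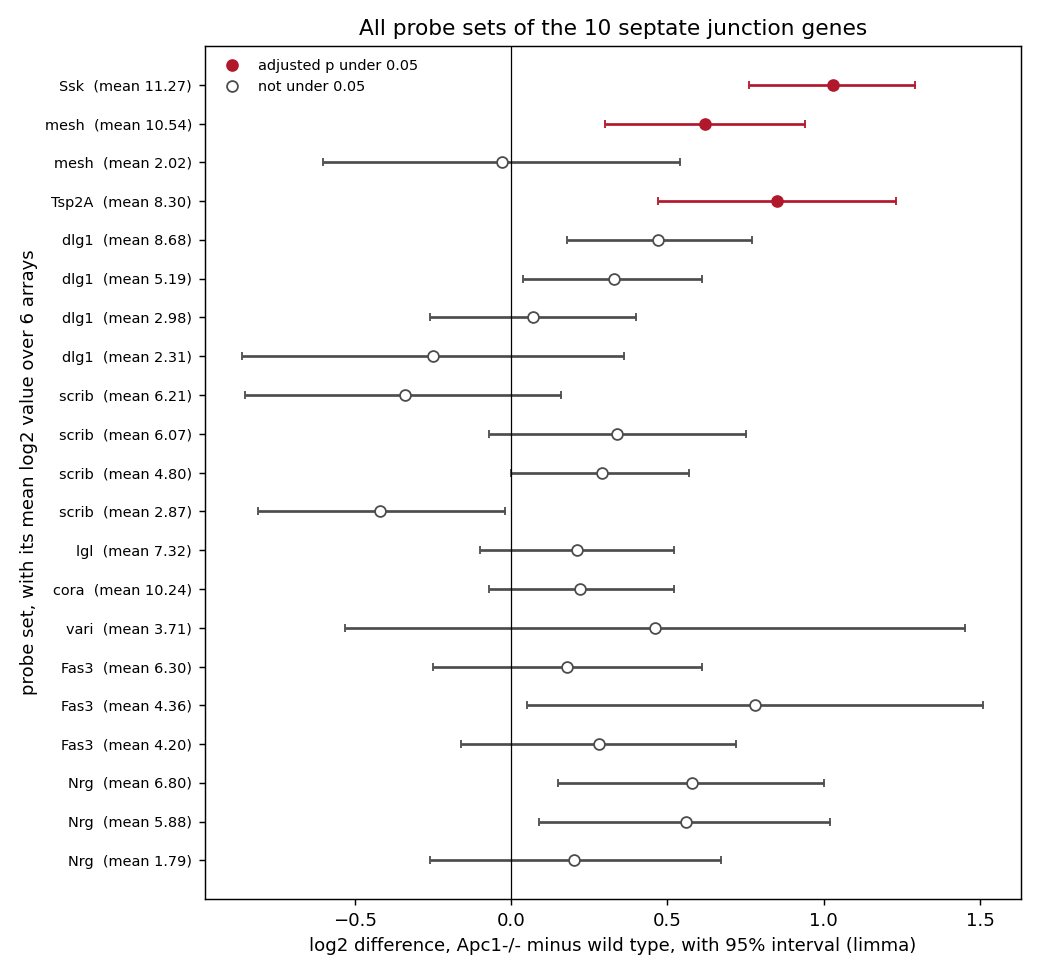
Log2 difference, *Apc1*-/- minus wild type, with its 95% interval (horizontal axis) for each of the 21 probe sets of the septate junction genes, grouped by gene with the brightest first (vertical axis, with the mean log2 value over all arrays). Filled red points have a limma adjusted p under 0.05. The 3 called probe sets belong to *Ssk*, *mesh* and *Tsp2A*, and the 4 probe sets of *scrib* lie on both sides of 0.

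Counted by separation of the arrays in place of a test, 12 of the 21 member probe sets showed no overlap between the genotypes (57.1%), against 31.3% of all probe sets. Of these, 11 were higher in *Apc1*-/- midguts, which 17.2% of all probe sets were, and 1, of *scrib*, was lower, which 14.2% were. With 3 arrays against 3, an exact permutation test of a single probe set cannot give a p under 0.1, so separation alone passes no threshold. Among members with a mean over 5, 9 of the 12 probe sets were higher without overlap, against 32.6% of all probe sets of that brightness.

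The other 23 septate junction genes, all measured and each counted by its brightest probe set, had 3 called, all higher in *Apc1*-/-, and a median difference of 0.14. That count is near the background of probe sets with a mean over 5, of which 13.5% were called higher, while 6.82% of all probe sets were. The list held dim and bright genes, with means of 2.67 to 10.53, so neither share comes from a like set. No excess is read from the count. Beside *hoka* the called genes were *cold* and *crok*, which encode small proteins of the Ly6 family needed for pleated junctions to assemble. *cold* had values of 7.05, 7.57 and 7.52 in *Apc1*-/- midguts and 5.92, 6.35 and 6.28 in wild type, a difference of 1.20, or 2.30-fold (limma adjusted p = 0.00663), and was called with each array left out (1.28 without wild type replicate 2). *crok* had values of 4.97, 5.80 and 5.18 in *Apc1*-/- midguts and 4.09, 4.53 and 3.99 in wild type, a difference of 1.11 (limma adjusted p = 0.0269). The call of *crok* held without *Apc1*-/- replicate 1 (1.29) or wild type replicate 2 (1.28) and was lost without any one of the other 4 arrays. The Ly6 genes did not move as one, since *bou* had a difference of −0.11 and *crim* one of 0.18.

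The Neurexin complex, claudin-like and tricellular junction genes gave no call. The complex of *Nrx-IV*, *Cont* and the sodium pump genes *Atpalpha*, *nrv1* and *nrv2* had differences between −0.20 and 0.54 over 6 probe sets, and no probe set separated the genotypes. *Nrx-IV*, the partner of Coracle and Varicose, had values of 5.32, 5.29 and 5.48 in *Apc1*-/- midguts and 5.09, 4.72 and 5.33 in wild type. The claudin-like genes *sinu*, *kune* and *pck* had differences between 0.33 and 0.53, with overlap in each. The genes of tricellular junctions, where 3 cells meet, were the only group with every difference below 0. *bark*, also named *aka*, had values of 5.83, 5.38 and 5.48 in *Apc1*-/- midguts and 6.59, 5.83 and 6.87 in wild type, a difference of −0.87 (limma adjusted p = 0.0863), with *M6* at −0.42 and *Gli* at −0.30, and none of these was called.

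**Figure D4:**
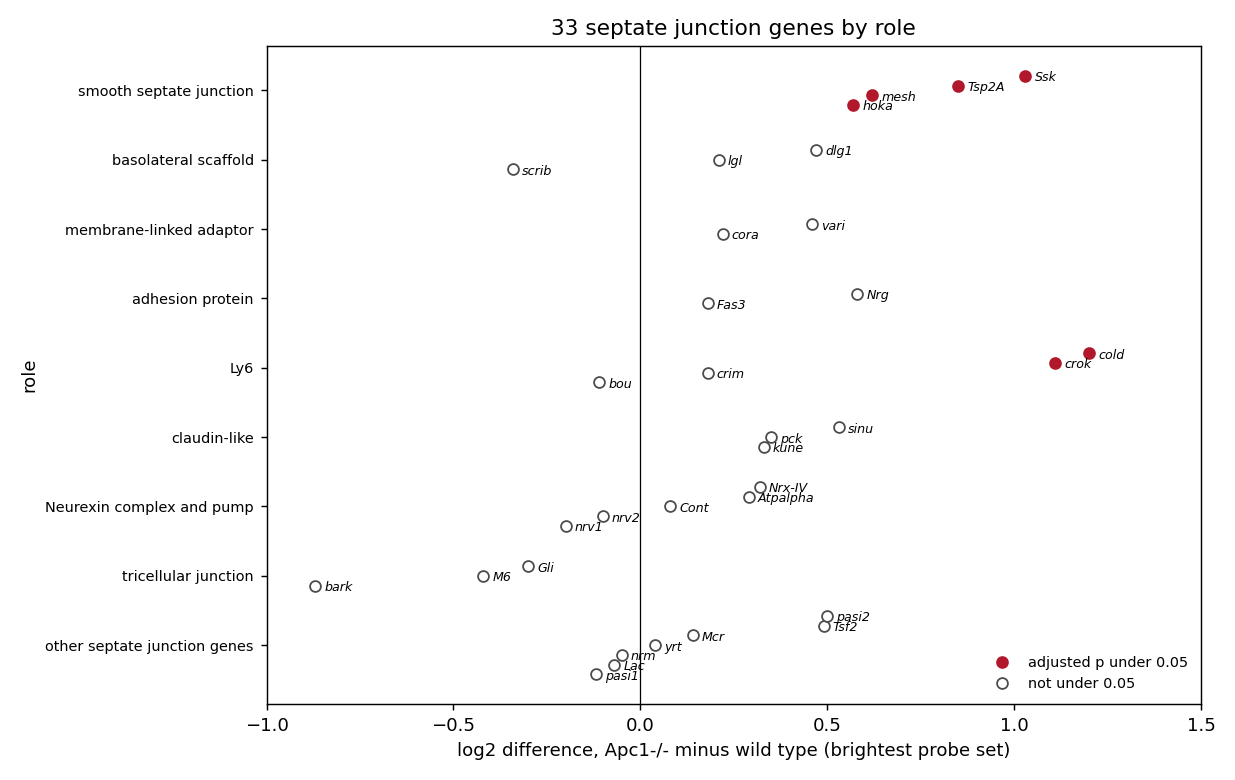
Log2 difference, *Apc1*-/- minus wild type (horizontal axis), of 33 septate junction genes by role (vertical axis), each gene shown by its brightest probe set. Filled red points have a limma adjusted p under 0.05. The 4 smooth septate junction genes and the Ly6 genes *cold* and *crok* are filled, and *bark*, *M6* and *Gli* lie below 0.

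Adherens junction and apical polarity genes, which sort the membrane beside the septate junction, had 4 of 17 called, all higher, with a median difference of 0.39, where 13.5% of all probe sets with a mean over 5 were called higher and their median was 0.12. These were *Vinc* (0.90, limma adjusted p = 0.0142), *cno* (0.71), *jub* (0.71) and *arm*, the fly β-catenin (0.46, limma adjusted p = 0.0393). Of these, *Vinc* was called with each array left out, while *arm* was called only without wild type replicate 2, *cno* only without wild type replicate 3 and *jub* only without wild type replicate 1. Without wild type replicate 2 the differences were 1.00 for *Vinc*, 0.72 for *cno*, 0.75 for *jub* and 0.52 for *arm*. *shg*, which encodes E-cadherin, had means of 4.16 in *Apc1*-/- and 4.09 in wild type. Integrin and basement membrane genes, which anchor the basal side, had 6 of 15 called, all higher, against the same 13.5%. Both lists also held dimmer genes, with means down to 3.75 (adherens junction and polarity) and 2.91 (integrin and basement membrane). The shares over probe sets with a mean over 5 are therefore not from a like set. With 1 probe set kept per gene, 1157 of 13081 entries were called higher. No excess is read from these counts. By the brightest probe set all 15 differences were above 0, against 62.3% of all probe sets with a mean over 5, with a median of 0.59. The integrin gene *mew* had the largest, 1.45 (limma adjusted p = 0.000783), followed by the laminin gene *LanA* at 1.18, *parvin* at 0.96 and *mys* at 0.91, each called with every array left out in turn. The calls of *stck* (0.59) and *trol* (0.49) were less firm, since *stck* was called only without wild type replicate 3 and *trol* in 0 of the 6 fits. Of the other probe sets of *trol*, 4 had differences below 0, down to −0.73 without overlap (limma adjusted p = 0.0907), so the arrays assign no direction to *trol* as a gene. Without wild type replicate 2 the differences were 1.43 for *mew*, 1.19 for *LanA*, 0.85 for *parvin*, 0.82 for *mys*, 0.53 for *stck* and 0.50 for *trol*.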

How the data were processed

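The authors hybridized labelled midgut RNA to Affymetrix arrays and deposited log2 values, obtained by RMA normalization of the scans. Each probe set has 1 such value for every array. The software and background correction are not given in the sources used here. The processing notes also name MAS5. The deposited table also holds the authors' own fold changes and p-values, which were not used. Array medians lay between 2.54 and 2.60, and precision is limited by the number of arrays.

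Of 18952 probe sets, 183 Affymetrix controls were left out. Members were matched by symbol or synonym, genes of the other lists by RefSeq accession (release 6 annotation, names and gene order only), leaving out probe sets of several genes, so 2 of the 8 enterocyte genes were not used. Genotypes were compared with limma 3.58.1 in R 4.3.3 (lmFit, eBayes without trend, no block), with Benjamini-Hochberg adjustment over 18769 probe sets. The procedure was run on simulated data with independent, normally distributed values, as a check of the code. That run lends no support to the calls reported here. The samples of a genotype were separate pools of midguts, and whether they came from separate cultures is not stated. The p-values therefore set each difference against the spread between these pools, which may be smaller than that between cultures. Outside the members, up to 8 called genes per list were named in the junction, adhesion and muscle lists, by the brightest probe set. Those with the largest absolute difference came first. Called genes of the other marker lists were counted but not named. *Lac*, *bou*, *Irk3*, *Uro*, *shg*, *bark*, *M6* and *Gli* and the genes named by role were chosen after their values were seen. The members and lists were chosen with earlier results of these data known. Further marker lists gave few calls: trachea 0 of 6, hindgut and tubule 0 of 4, ovary 0 of 4, neuron and glia 1 higher and 1 lower of 6, fat body and haemocyte 1 higher of 6. Alternatives were 1 probe set per gene, the mean of a gene's probe sets, median centring, quantile normalization, filters on dim probe sets, other variance models, named probe sets alone, a replicate block and each array left out. Plots were made with Python 3.11.15 and matplotlib 3.10.9. No sequence was used.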

Additional observations from a re-analysis of the deposited data

How the results depend on the processing

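The count of 3 called member probe sets, from 3 genes, stayed at 3 with median centring, quantile normalization, array weights or named probe sets alone, and was 4 with either filter on dim probe sets or with trend and robust estimation, in each case by the addition of *dlg1*. With an equal-variance test without moderation it was 1, *Ssk*, where 652 of all probe sets were called in place of 2072. With 1 array left out it ranged from 1 to 4, for probe sets and for genes, and was 1 without *Apc1*-/- replicate 1 or *Apc1*-/- replicate 3. Of all probe sets, 1085 (without *Apc1*-/- replicate 3) to 1736 (without wild type replicate 2) were called in these fits, so calls were lost in general. With 1 entry per gene, 4 of the 10 genes were called with the brightest probe set and 2 with the mean. The labels state no pairing of the replicate numbers. Deviations of equally numbered replicates had correlations of 0.19 (number 1), 0.24 (number 2) and −0.05 (number 3). Those of unlike numbers had −0.29 to 0.14. Whether the numbers pair the samples cannot be told from these values. With the replicate block the count was 4, by the addition of *Nrg*, and 1849 probe sets were called in all.

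No called difference of a member changed sign in any alternative. The sign turned in 3 dim probe sets. That of *mesh*, between −0.29 and 0.15 with 1 array left out, became 0.04 with quantile normalization, 0.01 with array weights, 0.15 without *Apc1*-/- replicate 2, 0.04 without *Apc1*-/- replicate 3 and 0.11 without wild type replicate 2. Those of *dlg1*, between −0.46 and 0.05 and between −0.02 and 0.19 with 1 array left out, became 0.05 and −0.02 without wild type replicate 2. In 5 of the 21 member probe sets the mean was under 3, close to the array medians, so their differences say little. Among the other septate junction genes the count of 3 became 1 without *Apc1*-/- replicate 2 or 3 and 0 with the equal-variance test. Of the 17 adherens junction and polarity genes, 2 were called with quantile normalization or the replicate block, 1 to 3 with 1 array left out (1 without any one *Apc1*-/- array), 7 with probe sets under the median left out, and 0 with the equal-variance test. The alternatives for these other lists were chosen after seeing the data.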
